A study of Homo sapiens with 6 samples.

Results

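The liver-enriched transcription factors described here are HNF4A, HNF4G, FOXA1, FOXA2, FOXA3, CEBPA, ONECUT1 and NR5A2. They were taken by gene name from the deposited expression table, which lists all 8 among its 35856 genes. RNA sequencing covered 3 libraries of HCCLM3 cells transfected with a LINC00862 vector and 3 libraries of HCCLM3 cells transfected with an empty vector, a group called Empty here and NC in the sample labels. HCCLM3 is an established line of liver cancer cells with high metastatic potential, and LINC00862 is a long noncoding RNA gene. The comparison addresses which genes differ when LINC00862 is overexpressed. The total counts were 59648337, 58241123 and 59243210 in Empty replicates 1, 2 and 3 and 68229070, 58781905 and 58913560 in LINC00862 replicates 1, 2 and 3. No source used here says that the 3 libraries of a group came from separate cultures, so the p-values measure only the spread between these libraries, which may be technical.

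Hepatocytes are defined by a small network of transcription factors that bind one another's regulatory regions and those of genes for plasma proteins, gluconeogenesis, lipid transport and bile acid synthesis. HNF4A is a nuclear receptor required for the hepatocyte state, and HNF4G is its close paralog. The FOXA proteins open compacted chromatin during liver specification, CEBPA is a leucine zipper factor of mature hepatocytes, ONECUT1 acts in liver and biliary development, and NR5A2 is a nuclear receptor that controls bile acid and cholesterol genes. Dedifferentiated hepatoma cells often lose several of these factors.

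The labels and the marker genes of liver cells were examined first. Transcript levels are given as FPKM, the number of fragments scaled by transcript length and library size. LINC00862 itself had 11, 21 and 6 counts in Empty and 145, 121 and 76 counts in LINC00862, higher in 3 of 3 libraries than any Empty library (log2 fold change 3.22, SE 0.53, adjusted p = 0.000583, edgeR). The log2 fold change was 3.83 without Empty replicate 2. ALB, which encodes the main plasma protein, had 0, 0 and 7 counts in Empty against 423, 394 and 282 with the LINC00862 vector. Of the 14 hepatocyte and hepatoma markers in the table, TTR, AMBP and GPC3 were at 0 in every Empty library, and AFP was at 0 in every LINC00862 library. The summed FPKM of these 14 genes was 201, 242 and 294 in Empty, where the keratin gene KRT18 was the most abundant (153 FPKM on average). It was 2515, 2251 and 2053 in LINC00862, where the fibrinogen gene FGA was the most abundant (796 FPKM on average). The rise of the sum was carried by the 3 fibrinogen genes FGA, FGB and FGG. Without them, a split chosen after the values were seen, the other 11 genes summed to 194, 236 and 288 FPKM in Empty against 324, 308 and 268 FPKM with the LINC00862 vector, and the groups overlapped. Of the 12 genes tested, 9 rose, AFP and SERPINA1 fell and KRT8 did not pass, against 34.4% of all tested genes that rose and 29.8% that fell. Of the 12, 4 passed the filter only through the LINC00862 libraries and AFP only through Empty, so these had to differ. KRT18, among the 9, did not pass in 2 of its 14 alternative fits, where the adjusted p reached 0.0680.

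Of the 10 mesenchymal markers, 8 fell, PRRX1 rose (log2 fold change 3.66, adjusted p = 0.000124, edgeR) and SNAI1 did not pass (adjusted p = 0.571, edgeR), against 29.8% of all tested genes that fell. PRRX1 passed the filter only through the LINC00862 libraries and TWIST1 and TWIST2 only through Empty, so these 3 had to differ. The summed FPKM of the 10 genes, none of them at 0 in a whole group, was 573, 634 and 624 in Empty and 6.77, 6.44 and 7.39 in LINC00862. VIM, the intermediate filament of mesenchymal cells, was the most abundant of them in both groups, at 539 ± 50.1 FPKM in Empty against 3.77 ± 0.102 FPKM with the LINC00862 vector (SD, n = 3 each). Among the 11 biliary and progenitor markers, EPCAM rose from 0.547 to 159.8 FPKM on average, while SOX9 fell from 13.2 to 0.625 FPKM. In bulk RNA, fewer cells of a type and less RNA per cell cannot be told apart. The libraries of each group come from their own cells, so an effect of LINC00862 cannot be told apart from any other difference between those cells. The part of these marker differences in the results below was not tested.

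**Figure D1:**
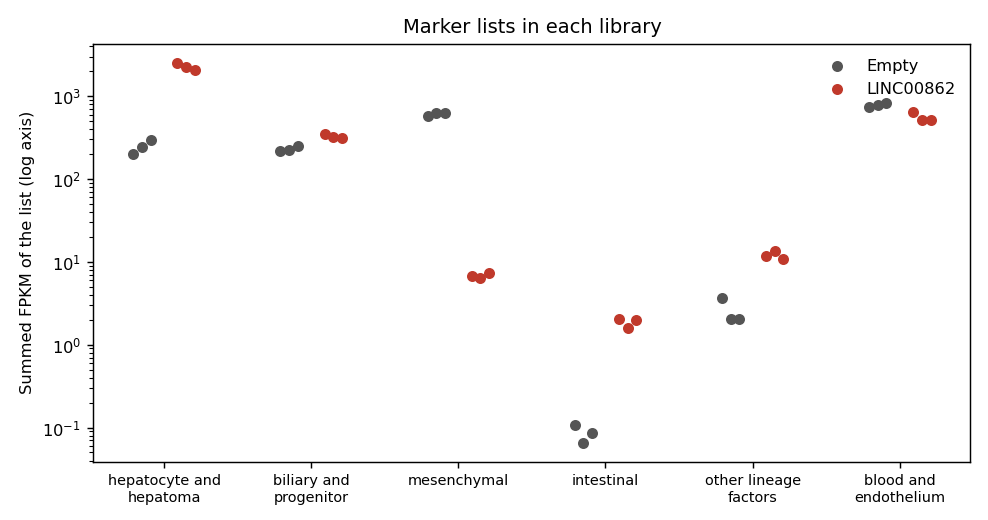
Summed FPKM of each marker list (log axis) in the 6 libraries, 1 point per library, Empty in grey and LINC00862 in red. The sum of the hepatocyte and hepatoma list, carried by 3 fibrinogen genes, was higher and that of the mesenchymal list, mostly VIM in Empty, was lower in each LINC00862 library than in each Empty library.

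The other lists were smaller in level or differed less. The summed FPKM of the 9 intestinal markers in the table was 0.108, 0.0656 and 0.0866 in Empty and 2.06, 1.58 and 2.01 in LINC00862. CDX2, TFF3 and FABP2 were at 0 in every Empty library and MUC2 was at 0 in every LINC00862 library. Among 14 factors of other lineages, the sum was 3.69, 2.07 and 2.02 FPKM in Empty and 11.9, 13.4 and 10.8 FPKM in LINC00862, with MITF the most abundant on average. In LINC00862, SOX2 (5.12, 4.78 and 5.21 FPKM) was above MITF (4.92, 6.04 and 4.35 FPKM) in 2 of 3 libraries, and in Empty it was detected only in replicate 3. The blood and endothelium list was dominated by HBB, the beta-globin gene, at 779 ± 44.3 FPKM in Empty against 551 ± 73.4 FPKM with the LINC00862 vector (SD, n = 3 each). Its log2 fold change of -0.33 did not pass (adjusted p = 0.116, edgeR), but it passed in 2 of its 14 alternative fits, and the adjusted p over these reached 0.573. PTPRC, the pan-leukocyte marker of that list, averaged 0.283 FPKM in Empty and 0.198 FPKM in LINC00862 and did not pass. The macrophage marker CD68 was the 1 gene of the 5 that passed, and it rose from 1.00 to 6.81 FPKM on average (log2 fold change 2.91, SE 0.37, adjusted p = 0.000130, edgeR).

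All 8 factors passed the filter on low counts and were higher in LINC00862 at a false discovery rate of 0.05 by edgeR's quasi-likelihood test, against 34.4% of the 20741 tested genes that were called higher, 29.8% called lower and 64.2% called in either direction. This count supports nothing by itself. Apart from FOXA1, the other 7 factors passed the filter only through the LINC00862 libraries, so they had to differ to be tested. The FPKM of the groups did not overlap for any of the 8 factors, which held for 71.1% of the tested genes. An exact two-sided permutation test of the FPKM gave p = 0.1 for each, the smallest p that 3 libraries against 3 allow.

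The depth behind the low values is smaller than the counts look. Over the 6 libraries, 6191 gene values in the table were a count of 1, 5371 were 2, 4619 were 3, 8142 were 4 and 2777 were 5, and a count of 8 was also more frequent (3424 values) than 7 (2662) or 9 (1762). The deposited files do not state what a count stands for. Because of the excess at 4 and 8, a count of 4 was taken as about 1 read pair, although values of 1 to 3 also occur, and the read pairs, floors and intervals below rest on that assumption. The floor for a fold against a group at 0 was set at 3 read pairs, 12 counts summed over the 3 libraries of the group. Bounds and intervals below cover counting error only. By this measure 6 of the 8 factors were at or under the floor in Empty, and the fitted log2 fold changes of such genes depend on the small count that edgeR adds.

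**Figure D2:**
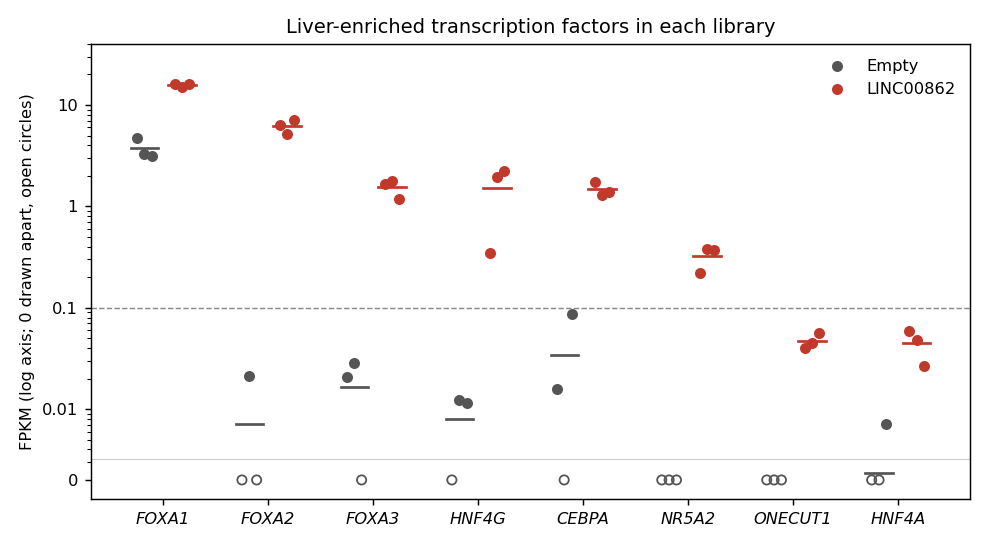
FPKM of the 8 factors (log axis, values of 0 drawn apart as open circles) in each library, Empty in grey and LINC00862 in red, with the mean of each group as a short line. The dashed line marks 0.1 FPKM, which in Empty was exceeded by FOXA1 and by no other factor.

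FOXA1 was the one factor measured well above the floor in both groups. FOXA1 (ENSG00000129514), a pioneer factor of endoderm, spans 37589552 to 37595249 of chromosome 14, minus strand, in the hg38 coordinates of the deposited table. Its FPKM was 4.78, 3.32 and 3.16 in Empty replicates 1, 2 and 3 and 16.0, 15.0 and 16.0 in LINC00862. Every LINC00862 library was thus above every Empty library, and Empty replicate 1 was the highest of its group. The counts, 1397, 959 and 931 against 5401, 4374 and 4747, gave a log2 fold change of 2.25 (SE 0.17, adjusted p = 5.00e-06, edgeR), a 4.76-fold rise. Among the tested genes, 19.5% had a larger fitted log2 fold change, so the rise of FOXA1 is not unusual in this comparison.

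FOXA2, the paralog needed with FOXA1 for liver specification, was close to undetected in Empty. FOXA2 (ENSG00000125798, chromosome 20, minus strand, 22581005 to 22585455) had 0, 4 and 0 counts in Empty and 1261, 891 and 1249 counts in LINC00862. In FPKM these were 0, 0.0212 and 0 against 6.33, 5.18 and 7.15. The 4 counts in Empty replicate 2 amount to about 1 read pair, and the ratio between the groups was 908-fold with an exact 95% interval from 162 to 35886. The fitted log2 fold change was 9.70 (adjusted p = 2.06e-06, edgeR), and it was 13.21 without Empty replicate 2, when Empty is at 0.

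FOXA3, which acts in the adult liver on genes of glucose metabolism, showed the same order at a lower level. FOXA3 (ENSG00000170608, chromosome 19, plus strand, 45863989 to 45873797) had 3, 4 and 0 counts in Empty and 270, 254 and 170 counts in LINC00862. Its FPKM was 0.0208, 0.0286 and 0 in Empty and 1.66, 1.80 and 1.19 in LINC00862, with replicate 3 the lowest in both groups. The ratio was 92.9-fold (exact 95% interval 25.3 to 773; adjusted p = 2.10e-05, edgeR). The fitted log2 fold change moved from 6.64 to 7.27 without Empty replicate 2.

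The make-up of FOXA transcripts therefore differed between the groups. FOXA1 took 99.6%, 98.5% and 100% of the summed FOXA FPKM in Empty, and 66.7%, 68.2% and 65.8% in LINC00862. FOXA2 took 26.4%, 23.6% and 29.3% in the LINC00862 libraries, and FOXA3 took 6.91%, 8.18% and 4.89%. On average the share of FOXA1 was lower by 32.5 percentage points (99.4 ± 0.759 against 66.9 ± 1.25, SD, n = 3 each; exact two-sided permutation test, p = 0.1, the smallest possible). With summed counts, which are not scaled by length, the differences were -21.6, 18.1 and 3.54 points for FOXA1, FOXA2 and FOXA3, against -32.5, 26.2 and 6.23 points in FPKM. The summed FPKM of the family was 3.78 ± 0.891 in Empty and 23.5 ± 1.29 in LINC00862 (SD, n = 3 each), so FOXA1 rose in level while its share of the family became smaller.

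**Figure D3:**
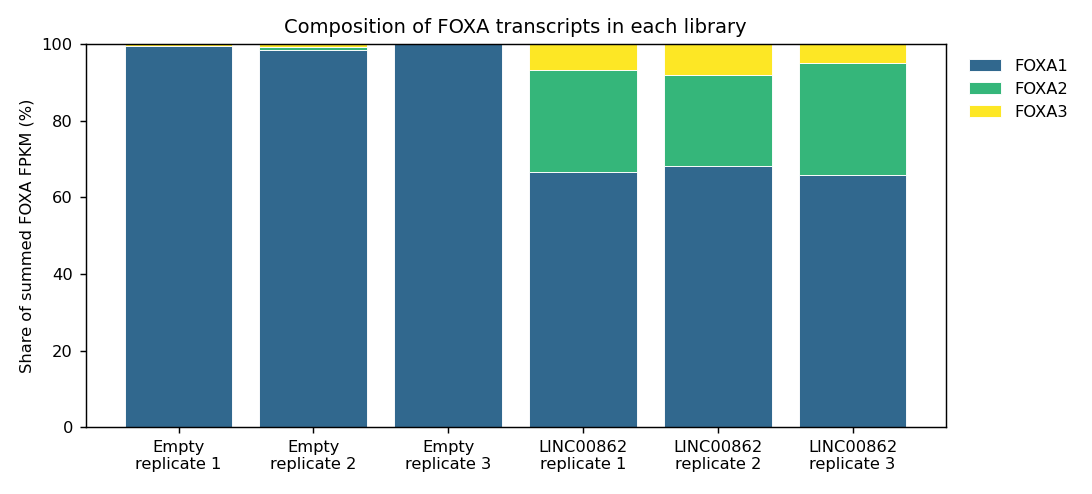
Share of FOXA1, FOXA2 and FOXA3 in their summed FPKM (percent, bars stacked to 100) in each of the 6 libraries. FOXA1 filled between 98.5% and 100% of the bar in Empty and between 65.8% and 68.2% in LINC00862.

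HNF4A, the factor most closely tied to the hepatocyte state, stayed very low in both groups. HNF4A (ENSG00000101076) lies on the plus strand of chromosome 20 from 44355700 to 44434596, and RefSeq on GRCh38.p14 gives 2 promoter windows for it. The 250 bases before each start are shown because the ONECUT motif ATCAAT occurs in both, marked in capitals. The first, chr20:44355449-44355698 on the plus strand, lies just outside the gene, and the second, chr20:44400989-44401238 on the plus strand, lies inside it, where GENCODE 29 has no exon and the window is thus intronic.
HNF4A first window: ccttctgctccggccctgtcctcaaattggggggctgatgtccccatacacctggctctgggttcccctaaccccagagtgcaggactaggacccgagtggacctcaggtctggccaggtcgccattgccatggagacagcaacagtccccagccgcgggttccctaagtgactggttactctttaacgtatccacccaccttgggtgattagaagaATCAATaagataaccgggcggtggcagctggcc
HNF4A second window: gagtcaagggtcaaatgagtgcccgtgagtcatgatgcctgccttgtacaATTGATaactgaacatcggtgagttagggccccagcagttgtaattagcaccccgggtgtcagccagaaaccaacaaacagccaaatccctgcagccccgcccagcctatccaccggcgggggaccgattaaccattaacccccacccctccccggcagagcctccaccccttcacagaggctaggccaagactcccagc
The motif lies 27 bases before the start in the first window and, as its reverse complement, 194 bases before the start in the second. The gene-level values cannot say which start was used.

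The counts of HNF4A were 0, 0 and 4 in Empty and 34, 24 and 14 in LINC00862, or 0, 0 and 0.0071 FPKM against 0.0594, 0.0479 and 0.0268 FPKM. The groups did not overlap, but the LINC00862 level is that of 18 read pairs over 3 libraries. The ratio was 19.2-fold (exact 95% interval 3.03 to 801; adjusted p = 0.00777, edgeR). Without Empty replicate 3, which held the only Empty read pair, the fitted log2 fold change moved from 4.09 to 7.61, and with limma-trend on log2(FPKM + 1) the gene no longer passed (adjusted p = 0.0701). In LINC00862, 68.6% of the genes in the table had a higher mean FPKM than HNF4A.

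HNF4G reached a far higher level than its paralog and varied most among the 8 factors in the LINC00862 libraries, relative to its mean. HNF4G (ENSG00000164749) is on the plus strand of chromosome 8 from 75407914 to 75566834. It had 0, 4 and 4 counts in Empty and 130, 624 and 723 counts in LINC00862. Its FPKM in LINC00862 was 0.349 in replicate 1 and 1.96 and 2.24 in replicates 2 and 3, so replicate 1 stood below the other 2 while still above all Empty libraries (0, 0.0123 and 0.0115 FPKM). The ratio was 197-fold (exact 95% interval 54.1 to 1633). The fitted log2 fold change of 7.61 (adjusted p = 0.000127, edgeR) was 8.09 without LINC00862 replicate 1 and 7.02 without Empty replicate 1. HNF4A made up 14.5%, 2.38% and 1.18% of the summed HNF4 FPKM in the LINC00862 libraries. In Empty the sum was 0 in replicate 1 and rested on about 3 read pairs in the other libraries, so no share is compared.

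CEBPA, which drives metabolic genes of the mature hepatocyte, was above the floor in Empty only because of a single library. CEBPA (ENSG00000245848, chromosome 19, minus strand, 33299934 to 33302534) had 3, 0 and 16 counts in Empty and 345, 225 and 240 counts in LINC00862. Its FPKM was 0.0158, 0 and 0.0874 in Empty and 1.74, 1.31 and 1.37 in LINC00862, with no overlap. The log2 fold change was 5.46 (SE 0.83, adjusted p = 0.000382, edgeR), a 44.0-fold rise. It was 7.50 without Empty replicate 3, the library with 16 counts.

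ONECUT1 was at the limit of detection. ONECUT1 (ENSG00000169856, chromosome 15, minus strand, 52755053 to 52791078) had 0 counts in each Empty library and 19, 18 and 24 counts in LINC00862, or 0.0400, 0.0446 and 0.0562 FPKM. Set against the floor, it was at least 5.43-fold higher in LINC00862 (adjusted p = 0.000882, edgeR). Its paralog ONECUT2, which can act with it in liver development, was far more abundant, with 0.0203 ± 0.00754 FPKM in Empty and 3.63 ± 0.107 FPKM in LINC00862 (SD, n = 3 each; log2 fold change 7.61, SE 0.25, adjusted p = 5.10e-08, edgeR).

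NR5A2 (ENSG00000116833) lies on the plus strand of chromosome 1 from 200027614 to 200175603, and LINC00862 is its nearest neighbour on the side of higher coordinates. RefSeq gives 2 promoter windows for NR5A2. The 250 bases before the second start, chr1:200042341-200042590 on the plus strand, are intronic in GENCODE 29 and are shown because a forkhead motif, TGTTTAC read on the other strand, lies 98 bases before the start, in capitals.
NR5A2 second window: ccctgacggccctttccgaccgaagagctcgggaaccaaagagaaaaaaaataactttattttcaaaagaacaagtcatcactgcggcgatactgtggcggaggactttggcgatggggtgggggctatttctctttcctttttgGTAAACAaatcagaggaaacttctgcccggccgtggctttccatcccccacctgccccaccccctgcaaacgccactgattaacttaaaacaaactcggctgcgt

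NR5A2 had 0 counts in each Empty library and 128, 188 and 190 counts in LINC00862. Its FPKM in LINC00862 was 0.220, 0.376 and 0.373, with replicate 1 the lowest. Against the floor it was at least 45.0-fold higher in LINC00862 (adjusted p = 3.12e-05, edgeR). LINC00862 itself, on the minus strand from 200253419 to 200374688, lies 77815 bases beyond NR5A2 at its nearer edge, which is its 3′ end, and had 0.0507 ± 0.0343 FPKM in Empty and 0.449 ± 0.120 FPKM in LINC00862 (SD, n = 3 each). The 2 genes do not overlap in the deposited coordinates. The gene-level counts of LINC00862 cannot separate transcripts of the vector from those of this locus. The nearest gene on the other side, AC099335, is 639138 bases away and had 4 counts in a single library.

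Within the LINC00862 libraries the factors spanned more than 2 orders of magnitude per length. FOXA1 (15.7 FPKM on average) was above FOXA2 (6.22) in 3 of 3 libraries, and FOXA2 was above FOXA3 (1.55) in 3 of 3. FOXA3, HNF4G (1.52) and CEBPA (1.47) overlapped in their ranges and cannot be ordered. CEBPA was above NR5A2 (0.323) and NR5A2 was above ONECUT1 (0.0469) in 3 of 3 libraries, while ONECUT1 and HNF4A (0.0447) overlapped. In Empty, FOXA1 (3.75 FPKM on average) was above every other factor in 3 of 3 libraries, and the others overlapped with their neighbours in the order.

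The study removed genes by an adjusted p, a 2-fold limit either way and 0.1 FPKM, without stating in which group or by what average the FPKM limit held. It was read here as a mean of 0.1 FPKM or more in each group, with an adjusted p under 0.05. FOXA1 alone of the 8 factors was within these limits as read, against 30.6% of the tested genes in either direction and 14.5% upwards. The other 7 were lost because their Empty level was below 0.1 FPKM. Under the other reading, with 0.1 FPKM asked in at least 1 group, 6 factors were kept, namely FOXA1, FOXA2, FOXA3, HNF4G, CEBPA and NR5A2, against 27.2% of tested genes in that direction. HNF4A and ONECUT1 were below 0.1 FPKM in both groups.

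The genes next to the factors were examined in the coordinates of the deposited table, where no gene overlaps any of the 8. Of the 16 nearest genes on either side, 9 were tested, 7 rose and 2 did not pass, against 34.4% of all tested genes that rose. The 7 include LINC00862 itself, and 4 of the 9 passed the filter only through the LINC00862 libraries, so the count supports nothing. LINC00261, a long noncoding RNA gene 2362 bases from FOXA2 on the same strand, had 7, 4 and 0 counts in Empty and 866, 569 and 609 counts in LINC00862, a ratio of 182-fold (exact 95% interval 61.8 to 883; adjusted p = 5.38e-06, edgeR). Its fitted log2 fold change moved from 7.58 to 8.36 without Empty replicate 1. CEBPA-DT, transcribed away from CEBPA on the other strand and 322 bases from it, was at 0 in Empty and had 57, 44 and 52 counts in LINC00862, at least 13.6-fold higher (adjusted p = 0.000161, edgeR). Both noncoding genes were thus at or under the floor in Empty and well above it in LINC00862, as FOXA2 was.

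AC011029, 595284 bases from HNF4G, was at 0 in Empty and had 27, 21 and 13 counts in LINC00862, at least 5.43-fold higher (adjusted p = 0.000928, edgeR). AL121790 beside FOXA1 did not pass (log2 fold change 0.39, adjusted p = 0.642, edgeR). TTC6, 597 bases from FOXA1 on the opposite strand, rose by a log2 fold change of 1.58 (SE 0.41, adjusted p = 0.00791, edgeR). This gap depends on the annotation, since GENCODE 29 places that edge of FOXA1 at 37596059, beyond the deposited TTC6 start at 37595847. Whether reads of FOXA1 were counted for TTC6 was not tested. SYMPK, 794 bases from FOXA3, had a log2 fold change of 0.09 (SE 0.15, adjusted p = 0.632, edgeR), and its sign was reversed in 3 of its 14 alternative fits (adjusted p up to 0.980). IRF2BP1 on the other side of FOXA3 (log2 fold change 0.63, adjusted p = 0.0227, edgeR) and FITM2 beside HNF4A (0.74, adjusted p = 0.0251, edgeR) passed here but not in 6 and 7 of their 14 alternative fits, with the adjusted p reaching 0.0919 and 0.171. Library preparation was strand-marking, but whether counting used the strand is not given in the sources used here.

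For each factor the 2 tested genes with the most similar pattern were found by the root mean square difference of gene-centred log2 CPM over the 6 libraries. The closest to FOXA1 were C1RL (0.0521) and PTPRM (0.0561), which had log2 fold changes of 2.18 and 2.21. The closest to FOXA2 were the noncoding gene LINC01939 (0.0335) and IRX5 (0.153), those to FOXA3 were HAVCR1 (0.160) and VEPH1 (0.234), and those to CEBPA were CACNA2D3 (0.249) and KCNK15 (0.288). HNF4G had no close match, the nearest being AF254983 (0.740) and FGF13 (0.789). For NR5A2 they were LINC00923 (0.0864) and LINC01993 (0.103), for ONECUT1 AL390198 (0.0621) and CYP26B1 (0.0910), and for HNF4A AC034243 (0.0706) and CPNE4 (0.0813). The fitted log2 fold changes of LINC01939 and IRX5 moved to 13.20 and 12.91 without Empty replicate 2. Those of CACNA2D3, KCNK15, AF254983, AC034243 and CPNE4 moved to 7.57, 7.04, 10.65, 7.57 and 7.63 without Empty replicate 3. With so large a difference between the groups, a small distance mainly states that 2 genes differ between the groups by a similar amount on this scale. For genes near 0 it also reflects the small count added before taking logarithms, and the fitted values can then differ. CYP26B1, with 169 counts summed over Empty, had a fitted log2 fold change of 3.56, against 7.42 for ONECUT1, which was at 0 there.

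Promoter windows from RefSeq (GRCh38.p14, 250 bases before to 50 after each start) were found for 6 of the 8 factors, 8 windows in all, and not for FOXA2 and HNF4G. Motifs were searched on both strands. The forkhead motif TGTTTAC was in 1 of the 8 windows (NR5A2) and in 3.42% of all 35116 windows, and TGTTTGC was in 1 (FOXA1) and in 3.89% of all. The ONECUT motif ATCAAT was in 2 (HNF4A) and in 6.26% of all. The HNF4 motif CAAAGTCCA (0.384% of all windows), the HNF4-type direct repeat (0.194%), the CEBP motif TTGCNNAA (10.5%) and the NR5A2 motif CAAGGTCA (1.28%) were in none of the 8. These are matches of letters and no evidence of binding.

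Other transcription factors and nuclear receptors of the liver were compared next. Of 24 listed regulators, 22 were in the table and 18 were tested, of which 13 rose, 3 fell and 2 did not pass, against 34.4% of all tested genes that rose and 29.8% that fell. Their median log2 fold change was 1.32, against 0.11 over all tested genes, a value that lay between -0.05 and 0.32 under other scalings of the libraries. As for the 8 factors, 4 of these genes passed the filter only through the LINC00862 libraries.

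PROX1, needed for hepatoblast migration, had 0.578 FPKM on average in LINC00862 and about 1 read pair in Empty, a ratio of 289-fold (exact 95% interval 51.5 to 11470). The Empty read pair of PROX1 was in replicate 3, without which its fitted log2 fold change moved from 8.04 to 11.55.

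Regulators with a measurable Empty level rose as well. KLF15, which acts in amino acid catabolism and gluconeogenesis, rose from 0.179 to 7.70 FPKM on average (log2 fold change 5.56, SE 0.25). XBP1, a factor of the unfolded protein response and of secretory cells, rose from 24.1 to 193.1 FPKM (3.17, SE 0.16). The CEBP genes on the list also rose, with log2 fold changes of 2.57 for CEBPG, 1.41 for CEBPD and 1.24 for CEBPB (adjusted p at most 0.000798, edgeR).

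Some regulators did not follow. RXRA, the partner of many metabolic nuclear receptors, fell from 2.91 ± 0.578 to 1.00 ± 0.174 FPKM (SD, n = 3 each; log2 fold change -1.37, SE 0.18, adjusted p = 0.000137, edgeR). NR2F2, an orphan receptor that competes with HNF4A for sites, fell from 22.8 ± 5.10 to 12.5 ± 0.840 FPKM (-0.68, SE 0.17, adjusted p = 0.00557, edgeR). GATA6, which acts in early liver development, had a log2 fold change of -0.62 (adjusted p = 0.0383, edgeR) that did not pass in 8 of its 14 alternative fits, with the adjusted p reaching 0.143. HHEX, a homeodomain factor of the liver bud, did not pass (log2 fold change -0.30, SE 0.22, adjusted p = 0.256, edgeR), although it passed in 2 of its 14 alternative fits, and the adjusted p over these reached 0.740. NR0B2, a repressor induced through bile acid signalling, had 3, 0 and 8 counts in Empty and 0 in LINC00862 and was not tested, while ONECUT3 and NR1I2 had no entry under these names.

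**Figure D4:**
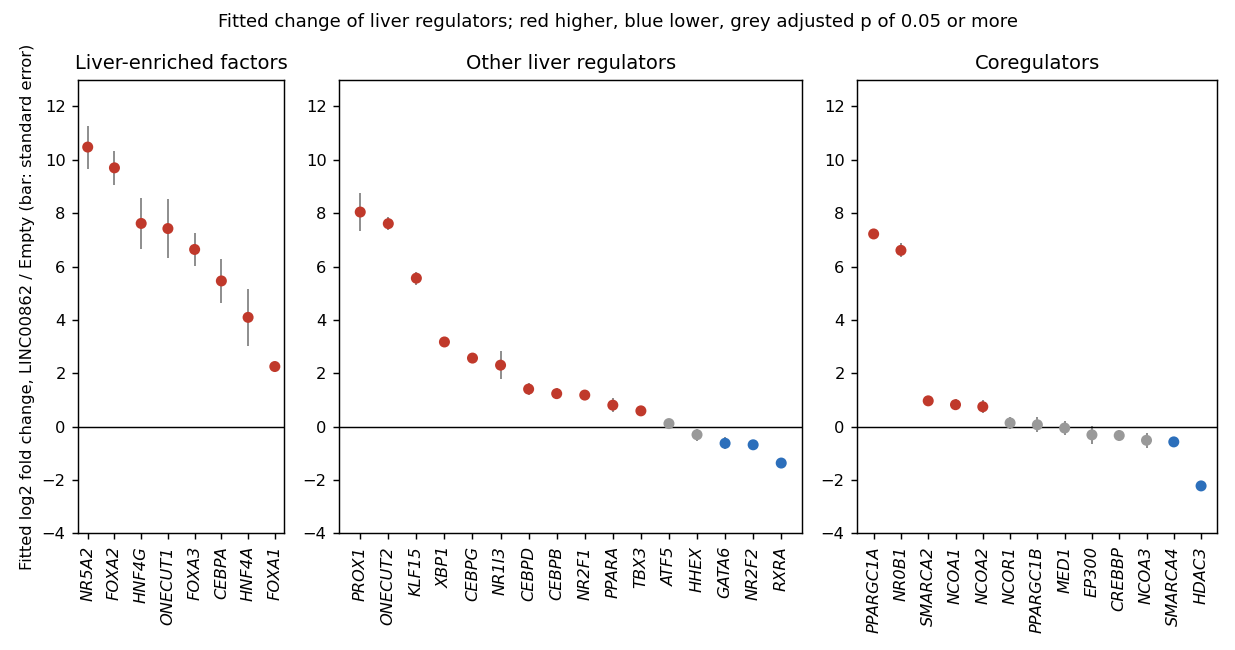
Fitted log2 fold change of LINC00862 against Empty (vertical axis, bars are standard errors, 3 libraries per group) for the 8 factors, 16 of the other liver regulators and 13 of the coregulators that were tested. All 8 factors and 11 of the 16 regulators drawn lie above 0 with an adjusted p under 0.05, and the points of genes at or near 0 in Empty depend on the small count added in the fit.

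Coregulators carry no DNA-binding specificity of their own in most cases. All 14 listed were tested, of which 5 rose, 3 fell and 6 did not pass, against 34.4% and 29.8% of all tested genes that rose and fell. Their median log2 fold change was 0.01. PPARGC1A, a coactivator of HNF4A and of nuclear receptors in fasting metabolism, rose from 0.336, 0.268 and 0.218 FPKM to 38.2, 38.5 and 32.3 FPKM (log2 fold change 7.22, SE 0.20, adjusted p = 2.94e-08, edgeR). It was above each of the 8 factors in mean FPKM in LINC00862. NR0B1, an orphan receptor that represses NR5A family members, rose from 0.0881 to 8.10 FPKM on average (log2 fold change 6.61, SE 0.26), but it passed the filter only through the LINC00862 libraries and so had to differ.

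The other coregulators changed less than these. SMARCA2, an ATPase of the BAF chromatin remodelling complex, rose by a log2 fold change of 0.97 (SE 0.16) and its paralog SMARCA4 fell by 0.57 on the log2 scale (SE 0.13). HDAC3, a histone deacetylase found in corepressor complexes, fell from 26.1 ± 1.71 to 4.99 ± 1.09 FPKM (SD, n = 3 each; log2 fold change -2.22, SE 0.17, adjusted p = 6.49e-06, edgeR). The acetyltransferase genes EP300 and CREBBP did not pass (adjusted p = 0.446 and 0.209, edgeR).

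Genes known as targets of HNF4A, FOXA, CEBPA or NR5A2 were then taken from 4 lists, which share some genes. Of the tested targets in the lists for HNF4A, FOXA, CEBPA and NR5A2, 5, 6, 3 and 4 passed the filter only through the LINC00862 libraries, and 1 FOXA target passed only through Empty, so these had to differ. The counts below stand against 34.4% of all tested genes that rose and 29.8% that fell, and support nothing by themselves.

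For HNF4A, 22 of 27 listed targets were in the table and 10 were tested, of which 5 rose, 1 fell and 4 did not pass (median log2 fold change 3.33, or 2.33 with genes at 0 in a group set at their bound). F7, which encodes a coagulation factor, had 0, 7 and 15 counts in Empty and 1560, 1306 and 1461 counts in LINC00862 (log2 fold change 7.68, SE 0.63, adjusted p = 8.28e-06, edgeR). The log2 fold change was 8.76 without Empty replicate 3 and 7.07 without Empty replicate 1. TTR, a thyroid hormone carrier, was at 0 in Empty and at least 19.0-fold higher in LINC00862. SERPINA1, which encodes the main plasma protease inhibitor, fell from 1.11, 1.22 and 1.53 FPKM to 0.0751, 0.144 and 0.0658 FPKM (log2 fold change -3.55, SE 0.36, adjusted p = 3.20e-05, edgeR). Of the 22 targets in the table, 7 were at or under the floor in both groups, among them CYP8B1, SLC2A2 and APOA2, and APOA4, APOC2, APOC3, F9 and OTC had no entry.

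For FOXA, all 8 listed targets were in the table and 7 were tested, of which 6 rose and 1 fell (median log2 fold change 7.29, or 6.26 with genes at 0 in a group at their bound). IGFBP1, a secreted binder of insulin-like growth factors and a long-studied FOXA target, was at 0 in Empty and had 720, 587 and 689 counts in LINC00862, at least 178-fold higher (adjusted p = 1.96e-06, edgeR). TAT, which degrades tyrosine, was at 0 in Empty and at least 23.3-fold higher in LINC00862. AFP, the fetal serum protein, had 14, 24 and 30 counts in Empty and 0 in LINC00862, at least 5.31-fold lower (adjusted p = 0.00121, edgeR). AFP passed the filter only through the Empty libraries, so it too had to differ to be tested.

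For CEBPA, 7 of 9 listed targets were in the table and 5 were tested, of which 4 rose and 1 fell (median log2 fold change 7.29, or 6.61 with genes at 0 in a group at their bound). CPS1, the first enzyme of the urea cycle, was the most abundant, with 1.49, 1.34 and 1.07 FPKM in Empty and 306, 338 and 270 FPKM in LINC00862 (log2 fold change 8.04, SE 0.22, adjusted p = 2.95e-08, edgeR). ALB was 146-fold higher (exact 95% interval 40.1 to 1214). PCK1, the gluconeogenic enzyme shared by 3 of the lists, was 83.3-fold higher over about 1 read pair in Empty (exact 95% interval 14.5 to 3331). All Empty counts of ALB and PCK1 were in replicate 3, without which their fitted log2 fold changes moved from 7.29 to 11.56 and from 6.61 to 9.75. The gene that fell was SERPINA1, also listed for HNF4A.

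For NR5A2, all 12 listed targets were in the table and 7 were tested, of which 4 rose, 1 fell and 2 did not pass (median log2 fold change 1.97). ABCG5 and ABCG8, whose proteins pair to form the sterol exporter, were both at 0 in every Empty library and at least 18.9-fold and 32.2-fold higher in LINC00862 (adjusted p = 9.75e-05 and 3.25e-05, edgeR). CYP19A1, which makes estrogens, was 20.3-fold higher over about 1 read pair in Empty replicate 3 (exact 95% interval 3.22 to 843). It did not pass with limma-trend on log2(FPKM + 1) (adjusted p = 0.107), the highest adjusted p of its alternatives, and its fitted log2 fold change moved from 4.23 to 7.75 without that library. CETP, which exchanges lipids between lipoproteins, rose from 0.0745 to 0.273 FPKM on average (log2 fold change 1.97, SE 0.49). SCARB1, the receptor for high-density lipoprotein, fell from 14.8, 11.5 and 14.9 FPKM to 5.81, 6.17 and 4.11 FPKM (log2 fold change -1.19, SE 0.17, adjusted p = 0.000261, edgeR). CYP7A1 and CYP8B1, the bile acid synthesis enzymes most closely tied to NR5A2, had at most 9 counts in any library and were not tested.

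**Figure D5:**
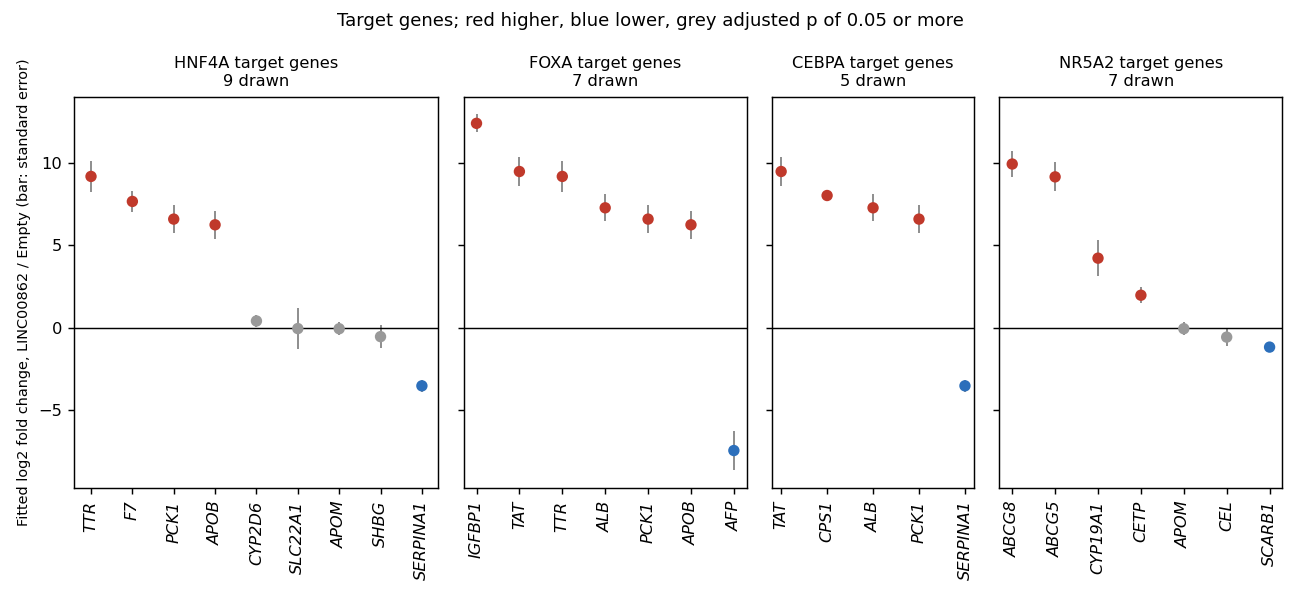
Fitted log2 fold change of LINC00862 against Empty (vertical axis, bars are standard errors, 3 libraries per group) for tested genes of the 4 target lists, with 9 of the 10 tested drawn for HNF4A. Of all tested genes, 5 of 10, 6 of 7, 4 of 5 and 4 of 7 rose in the lists for HNF4A, FOXA, CEBPA and NR5A2, and 1 fell in each, against 34.4% and 29.8% over the whole table of tested genes.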

How the data were processed

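The authors deposited raw counts per gene, and how the counting was set is not stated. The deposited FPKM values were computed by the authors from fragments, transcript length and library size. For both, the submitters' processing notes name cutadapt 1.9, HISAT2 2.0.4, UMI-tools, StringTie 1.3.4d, DESeq2, edgeR and the build hg38, with no role or order for each tool. The table held 0 other value columns.

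All 35856 genes entered 1 fit in edgeR 4.0.16 with filterByExpr, TMM scaling, the quasi-likelihood test and Benjamini-Hochberg adjustment, and 20741 were tested. Alternatives used DESeq2 1.42.0, limma 3.58.1, other scalings, no filter, a replicate block and each library left out. R 4.3.3, Python 3.11.15, pandas 2.3.3, scipy 1.17.1 and matplotlib 3.10.9 were used. Named genes were all members, the 3 largest called changes each way in each list, list members whose role is described, the nearest gene on each side of a member and the 2 most similar tested genes. The members and lists were chosen with earlier results of these data known. No pair of replicates agreed within sampling noise (chi-square per degree of freedom 5.22 to 69.2 on counts divided by 4). Promoters came from RefSeq on GRCh38.p14.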

Additional observations from a re-analysis of the deposited data

How the results depend on the processing

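The 8 factors kept their direction in every alternative that could fit them, and 7 of them also kept an adjusted p under 0.05. HNF4A did not with limma-trend on log2(FPKM + 1), where its log2 difference was 0.0596 (adjusted p = 0.0701, limma). The cause was not tested. With counts divided by 4, an alternative chosen after seeing the data, 11936 genes were called, and HNF4A and ONECUT1 were too low to be tested.

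The study does not state in which group its limit of 0.1 FPKM held. Read as both groups, 1 factor was within the limits, and read as at least 1 group, 6 were. With summed counts in place of FPKM, the differences in FOXA share were -21.6, 18.1 and 3.54 percentage points for FOXA1, FOXA2 and FOXA3, since counts are not scaled by length.

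With the replicate number as a block, 12098 genes were called. Over genes, libraries that carry the same number, each centred on its own group, correlated at -0.049, -0.025 and -0.007. No shared deviation by number was thus seen, but such values cannot show whether libraries of the same number were prepared together.

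The scaling moved the middle of the distribution. Over all tested genes the fitted log2 values had a median of 0.11 (TMM), 0.16 (DESeq2), 0.32 (upper quartile) or -0.05 (total counts alone). The share of called genes that rose was 53.6%, 55.1%, 60.4% or 48.5%, in that order. The DESeq2 values came from its own fit and test as well as its size factors, so they do not show the scaling alone.

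Among single named genes, 27 alternative values lost the threshold, 4 gained it and 5 changed sign. The adjusted p of those that changed sign was 0.250 or more. EP300 was at 0.24 without Empty replicate 1 (-0.59 to 0.24 over its alternatives). SNAI1 was at 0.0394 without LINC00862 replicate 2 (-0.798 to 0.0394 with each library left out). SYMPK was at -0.0654 with library size only, -0.0863 with limma-trend on log2(FPKM + 0.1) and -0.0762 on log2(FPKM + 1). The cause was not tested.

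Depth limits the low genes. HNF4A and ONECUT1 had summed counts of 72 and 61 in LINC00862, and 6 factors had 12 or fewer in Empty. Taking 4 counts as 1 read pair is an assumption that the files do not state.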
